A study of Homo sapiens with 12 samples.

Results

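The RNA-binding proteins ZFP36, ZFP36L1 and ZFP36L2 form a gene family, and PLEKHG2 is the next protein-coding gene downstream of ZFP36. The aim was to describe where hnRNPK was called on these 4 genes with and without overexpression of the long noncoding RNA CRLM1. Each of the 6 deposited hnRNPK ChIP-seq peak lists was searched with the GENCODE annotation. A peak counted if it touched the gene record or the 5 kb before its start. These are 4 of 20033 protein-coding genes on chromosomes 1 to 22, X and Y. The genes were chosen with the peak calls of these lists known, so the presence of a peak is a description here and was not tested.

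The libraries came from HCT116, an established human colorectal carcinoma cell line, in which hnRNPK was overexpressed in all 3 groups. The CRLM1-OE group also overexpressed CRLM1, and the others are labelled empty control and antisense control, with no further detail of the constructs in the labels of these libraries. Each group had 2 IP libraries, described as biological replicates and made with an anti-hnRNPK antibody, and each list was called against the input library of its group and number. The study describes hnRNPK expression from a transfected plasmid. For CRLM1 it describes both transfected plasmids and a lentiviral vector with puromycin selection, and does not say which was used for the ChIP-seq cells. Whether the cultures were clones or pools is not given in the sources used here, and peak lists hold no expression value with which to check the cell line. The lists held between 1619 and 4339 peaks on the chromosomes used, the CRLM1-OE lists being the longest, and the median peak width was 506 and 516 bp in CRLM1-OE replicate 1 and empty control replicate 2 and between 662 and 747 bp in the other lists. As the lists give no reads, the depth behind a called peak, or behind its absence, is unknown.

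ZFP36, also named tristetraprolin, and its relatives hold tandem CCCH zinc fingers that bind AU-rich elements in the 3' UTR of short-lived mRNAs, such as those of cytokines and growth regulators. They bring the CCR4-NOT deadenylase to the transcript, which is then degraded. ZFP36 is an immediate-early gene whose own mRNA carries AU-rich elements. PLEKHG2 is a guanine nucleotide exchange factor that is switched on by G protein beta-gamma subunits. HnRNPK is known to bind C-rich single strands of RNA and DNA through its KH domains.

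Peaks were called on ZFP36, ZFP36L1 and PLEKHG2 in CRLM1-OE replicates 1 and 2 and in none of the 4 control lists, whereas ZFP36L2 had no peak in any list. ZFP36 and PLEKHG2 met the rule through the same peaks, so the 3 genes stand for 2 loci. The ZFP36 and PLEKHG2 peaks lay over the 3' end of ZFP36 and the DNA behind it, and not on the start of either gene. That of replicate 2 also covered 954 bp of ZFP36 coding sequence. Over all protein-coding genes, 10.6% and 9.38% had a peak in CRLM1-OE replicates 1 and 2, 3.50% and 5.71% in the empty control lists, and 5.70% and 5.84% in the antisense control lists. Both replicates had a peak on 2.52% of genes in CRLM1-OE, on 0.669% in the empty control and on 0.884% in the antisense control. CRLM1-OE replicates 1 and 2 but none of the control lists had one on 210 genes, or 1.05%, and 71.8% of genes had a peak in no list. The choice of the 4 genes used this contrast, and nothing is read from their count against it. The smallest p-value of a two-sided exact permutation test, taken as the doubled one-sided value, is 0.133 for 2 lists against 4 and 0.333 for 2 against 2.

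The sequence at the centre of the interval shared by both CRLM1-OE peaks is shown first, beside the 250 bp before the starts of ZFP36 and PLEKHG2, where no list had a peak. The strand shown is that from which both genes are transcribed. Capitals mark the letters CCCC and TCCC, chosen because hnRNPK binds C-rich strands, and their complements GGGG and GGGA, which are the same letters on the other strand. The matches may overlap each other. The first sequence was read from hg38 and the others from RefSeq promoters of GRCh38.p14.
Shared centre, chr19:39409530-39409829, plus strand: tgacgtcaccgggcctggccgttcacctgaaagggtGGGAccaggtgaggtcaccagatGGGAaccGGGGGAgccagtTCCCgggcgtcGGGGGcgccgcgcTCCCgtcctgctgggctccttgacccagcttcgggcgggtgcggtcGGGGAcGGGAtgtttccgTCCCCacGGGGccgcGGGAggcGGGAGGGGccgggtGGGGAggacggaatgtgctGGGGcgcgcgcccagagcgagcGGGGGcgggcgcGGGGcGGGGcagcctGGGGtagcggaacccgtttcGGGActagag
Before ZFP36, chr19:39406597-39406846, plus strand: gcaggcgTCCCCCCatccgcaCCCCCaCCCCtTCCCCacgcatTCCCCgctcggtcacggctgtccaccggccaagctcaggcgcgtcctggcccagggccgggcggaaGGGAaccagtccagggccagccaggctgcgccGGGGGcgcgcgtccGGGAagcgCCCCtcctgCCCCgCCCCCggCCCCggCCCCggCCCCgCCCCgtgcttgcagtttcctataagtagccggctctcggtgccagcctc
Before PLEKHG2, chr19:39412419-39412668, plus strand: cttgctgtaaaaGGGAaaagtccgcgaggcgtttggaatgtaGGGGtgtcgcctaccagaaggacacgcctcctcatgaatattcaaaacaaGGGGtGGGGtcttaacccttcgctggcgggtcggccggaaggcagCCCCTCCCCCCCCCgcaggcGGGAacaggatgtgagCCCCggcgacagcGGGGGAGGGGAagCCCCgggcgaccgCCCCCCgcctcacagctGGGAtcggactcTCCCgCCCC

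The 3 sequences were rich in these letters, and the strand that held them differed. In the shared centre the C-rich letters lay mostly on the minus strand, with 14 of 15 matches of CCCC and 9 of 12 of TCCC. Before ZFP36 they lay mostly on the plus strand, with 16 of 18 matches of CCCC and 3 of 5 of TCCC, and before PLEKHG2 the plus strand held 13 of 19 and 2 of 7. The share of bases in capitals was 29% in the shared centre, 27.2% before ZFP36 and 28.4% before PLEKHG2. Thus the stretch under both peaks and the stretches without a peak were alike in the share of bases in capitals. They were less alike by motif. CCCC had 15 matches in the 300 bp of the shared centre, against 18 and 19 in the 250 bp before ZFP36 and PLEKHG2. TCCC had 12 matches there, against 5 and 7. A match to such short letters is common. CCCC was found on either strand in 89.6% of 35116 RefSeq promoters of 300 bp and TCCC in 96.0%. In the central 300 bp of 16214 peaks of the 6 lists the shares were 69.4% and 88.3%. These shares count any match. The median numbers of matches of CCCC and TCCC were 5 and 4 in the promoters and 1 and 3 in the peaks. The 15 and 12 of the shared centre were above these medians.

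ZFP36 (ENSG00000128016.7) lies on chromosome 19 from 39406847 to 39409412 on the plus strand of GRCh38. CRLM1-OE replicate 1 had 1 peak here, at 39409032 to 39410327, with a width of 1296 bp. Its score, given by the peak caller and higher for a smaller p-value, was 63.03 in a list that began at 50. It ranked 1171 of 4339 by score, so that 27.0% of the list stood at or above it. CRLM1-OE replicate 2 had 1 peak, at 39407716 to 39410567, with a width of 2852 bp and a score of 328.46, and it ranked 13 of 3163, in the first 0.411% of its list. The call at ZFP36 was thus near the top of replicate 2 and an ordinary call in replicate 1. The empty control and antisense control lists held no peak within the rule.

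The peak of replicate 1 lay wholly inside that of replicate 2, and the 1296 bp they shared were 100% of the first and 45.4% of the second. The midpoints were 538 bp apart. The replicate 1 peak began 2185 bp after the ZFP36 start and covered 381 bp of the 3' UTR and 915 bp beyond the gene, so 70.6% of it was outside ZFP36. The replicate 2 peak began 869 bp after the start and covered 954 bp of coding sequence, 716 bp of 3' UTR, 27 bp of intron and 1155 bp beyond the gene end. None of the 5 annotated ZFP36 transcript starts, which lie within 592 bp of the gene start, was under a peak. Both peaks were among the widest of their lists, as the replicate 1 peak ranked 94 of 4339 by width and the replicate 2 peak ranked 32 of 3163.

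The 3' UTR of ZFP36 is where its AU-rich elements lie. The heptamer TATTTAT, the DNA form of the core site that ZFP36 proteins bind in RNA, occurred 3 times on the gene strand in the annotated 3' UTR, between 174 and 214 bp before the gene end. All 3 matches lay under the peaks of CRLM1-OE replicates 1 and 2, which covered 52.5% and 98.6% of the 726 bp that are 3' UTR and in no transcript coding. The most upstream of them is shown with its 30 bases and the heptamer in capitals, since it places the known regulatory element of this gene inside the called interval.
ZFP36 3' UTR site, chr19:39409181-39409210, plus strand: aatgggcccttTATTTATgacgactttatt
The annotated 3' UTRs of ZFP36L1 and ZFP36L2 also held 3 such heptamers each, of which none lay under a peak, and that of PLEKHG2 held 1. The heptamer concerns RNA, and its place under a DNA peak is a description of position only.

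PLEKHG2 (ENSG00000090924.15) lies on chromosome 19 from 39412669 to 39428415 on the plus strand, 3256 bp behind ZFP36. It met the rule only through the 5 kb upstream of its start. The nearer edge of the peak was 2342 bp before the PLEKHG2 start in CRLM1-OE replicate 1 and 2102 bp before it in replicate 2. No peak touched its body in any list, and none of its 16 transcript starts, which run to 12102 bp into the gene, was under a peak. When the gene record alone was searched PLEKHG2 had 0 peaks in all 6 lists, whereas ZFP36 kept its peak in CRLM1-OE replicates 1 and 2. The interval between both genes also holds the whole of MIR4530, a microRNA gene on the minus strand at 39409623 to 39409678, which is 211 bp behind the end of ZFP36 and was covered by both peaks. Its mature product in RefSeq is shown because its gene is the only annotated one that both peaks covered in full, with the seed in capitals.
hsa-miR-4530: cCCAGCAGgacgggagcg

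**Figure D1:**
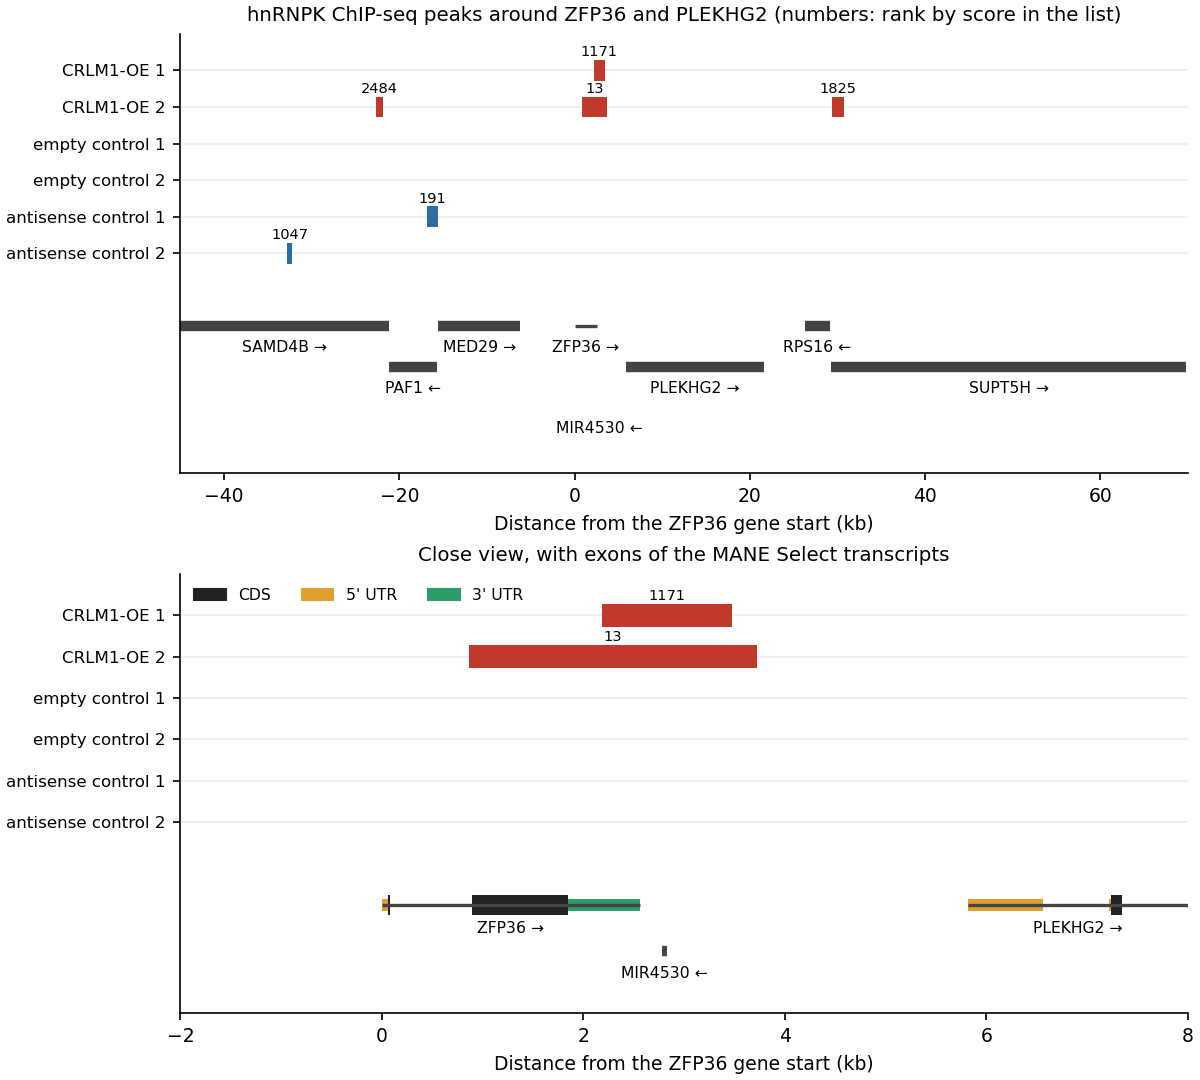
The horizontal axis is the distance from the ZFP36 gene start in kb, each row is 1 peak list, each bar is a peak drawn to scale and the number above it is its rank by score in that list. Gene records with arrows for strand are drawn below, and the close view adds exons of the MANE Select transcripts, in which the bars of CRLM1-OE replicates 1 and 2 begin 2185 and 869 bp after the ZFP36 start and end before the PLEKHG2 start.

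The number of calls around this locus differed between the lists. Within 100 kb on either side of ZFP36, CRLM1-OE replicate 1 had 1 peak and replicate 2 had 5, the empty control lists had 0 and 0, and the antisense control lists had 2 and 2. Peaks of the antisense control did come near. The peak of replicate 1, from 39390018 to 39391219 and ranked 191 of 2262, was 15.6 kb upstream of ZFP36 and lay over the start of PAF1, a subunit of the PAF1 elongation complex, and just before that of MED29, a Mediator subunit. That of replicate 2, from 39374045 to 39374646 and ranked 1047 of 2224, was 32.2 kb upstream, in SAMD4B, which encodes an RNA-binding protein. The nearest peaks of the empty control lists were 4679 and 702 kb away, at ranks 1055 of 1619 and 2057 of 2607. Of the protein-coding genes within 50 kb, RPS16, a ribosomal protein gene, and SUPT5H, an elongation factor gene, had a peak in CRLM1-OE replicate 2 alone, at 39436217 to 39437611 and ranked 1825 of 3163. SAMD4B had 1 more peak in CRLM1-OE replicate 2, which ranked 2484. No other protein-coding gene within 50 kb shared the pattern of ZFP36 and PLEKHG2.

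ZFP36L1 (ENSG00000185650.10) lies on chromosome 14 from 68787660 to 68796253 on the minus strand. CRLM1-OE replicate 1 had 1 peak, at 68792787 to 68793874, with a score of 94.97 and rank 165 of 4339. CRLM1-OE replicate 2 had 1 peak, at 68788580 to 68790248, with a score of 64.86 and rank 936 of 3163. The control lists had none within the rule, and their nearest peaks were between 148 and 1997 kb away. The order of the replicates was thus the reverse of that at ZFP36, with the higher relative rank in replicate 1, at 3.80% against 29.6% of the list.

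Unlike at ZFP36, the ZFP36L1 peaks of the replicates did not meet. They were separated by 2538 bp, and their midpoints were 3916 bp apart. The replicate 1 peak lay around the start of the MANE Select transcript, the reference transcript chosen jointly by RefSeq and Ensembl, which begins at 68793067, 3186 bp into the gene record. It also held a RefSeq start at 68793416 and covered 804 bp that are 5' UTR in some transcript, 189 bp of coding sequence and 95 bp of intron. The replicate 2 peak lay in the last exon, with 713 bp of coding sequence and 956 bp of 3' UTR, and ended 7673 bp into the gene record of 8594 bp. So 1 replicate had a call at the internal start and the other at the 3' end. The outermost start of the gene record, where 4 of the 6 transcripts begin close together, was under no peak. By the gene rule this counts as a peak in both replicates, although no base was called in both.

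Of the 210 protein-coding genes with this pattern of calls, 74 (35.2%) had overlapping peaks in the replicates, as ZFP36 and PLEKHG2 did, and the rest had peaks at different places, as ZFP36L1 did. In 124 of the 210 (59.0%), neither peak came within 1 kb of the gene start, in 86 at least 1 did and in 34 both did. By this measure ZFP36 was among the 86, since the replicate 2 peak began 869 bp after its start, and ZFP36L1 and PLEKHG2 were among the 124. The 74 genes with overlapping peaks were 0.369% of the protein-coding genes.

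ZFP36L2 (ENSG00000152518.8) lies on chromosome 2 from 43222402 to 43226606 on the minus strand. It has 1 annotated transcript and had 0 peaks in all 6 lists, also with 5 kb on both sides. The nearest call belonged to empty control replicate 1. This peak, from 43234204 to 43235108, ranked 130 of 1619 with a score of 75.86 and lay 7598 bp upstream, outside the 5 kb, near the 3' end of THADA, which is transcribed in the same direction. Antisense control replicate 2 had a peak 32.2 kb downstream that ranked 1984 of 2224. The CRLM1-OE lists had no peak within 272 kb. The PLEKHG2 peaks, with nearer edges at 2342 and 2102 bp, lie inside the 5 kb limit, and the peak at 7598 bp from ZFP36L2 lies outside it. Because the depth is unknown, the absence of a call at ZFP36L2 gives no upper limit on hnRNPK there.

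**Figure D2:**
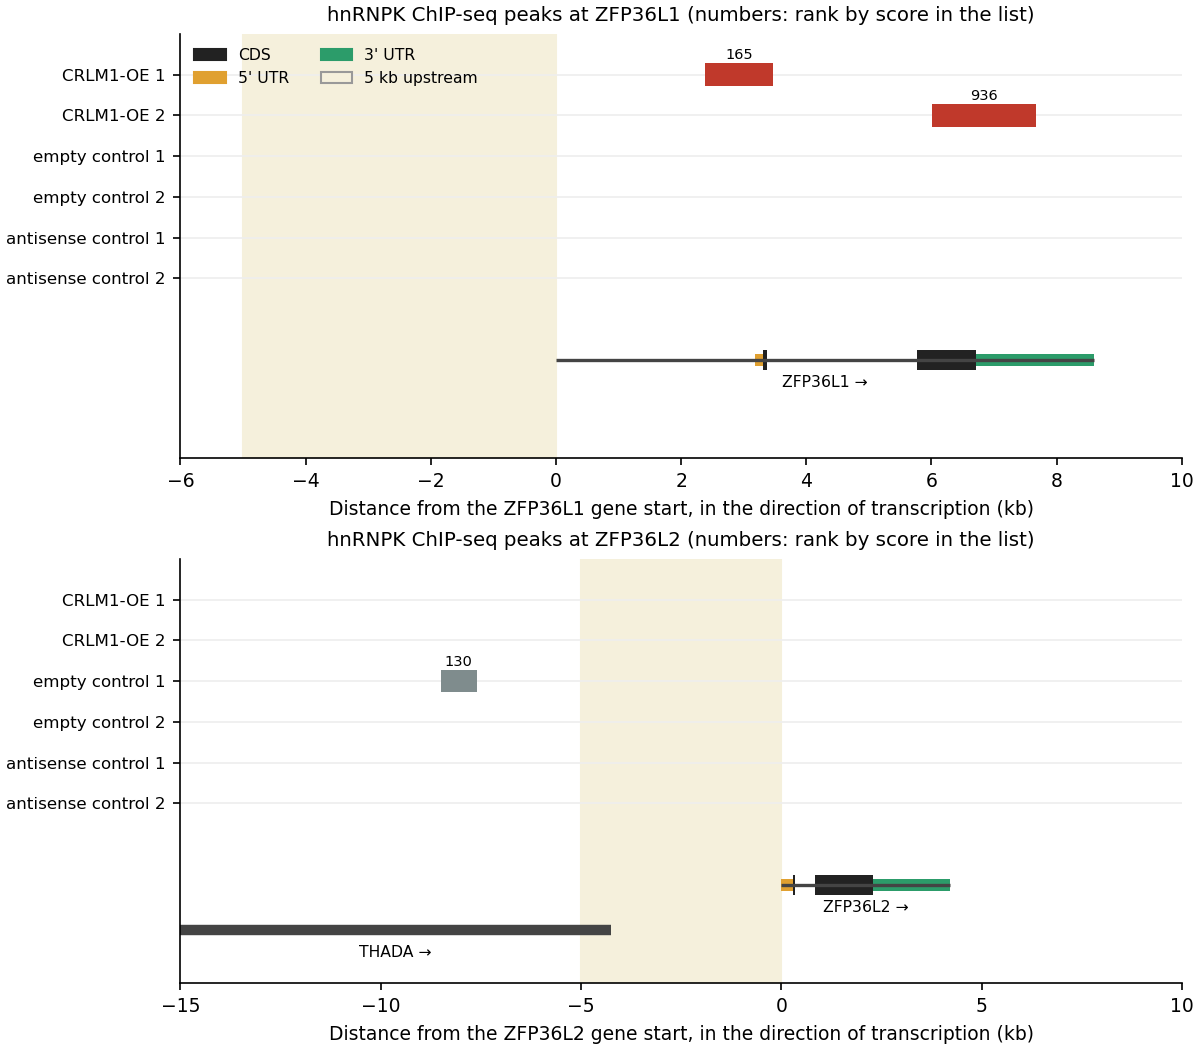
The horizontal axes give the distance from the gene start of ZFP36L1 (upper) and ZFP36L2 (lower) in the direction of transcription in kb, each row is 1 peak list, bars are peaks with their rank by score, the shaded part is the 5 kb upstream and the exons are those of the MANE Select transcript. At ZFP36L1 the bars of CRLM1-OE replicates 1 and 2 are 2538 bp apart, and at ZFP36L2 the single bar is that of empty control replicate 1, which lies 7598 bp upstream.

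Gene length and place were considered beside these calls, with the protein-coding genes ordered by length and divided into 4 bins of equal size. ZFP36, ZFP36L1 and ZFP36L2 are in the shortest bin, of 39 to 9749 bp, in which 0.819% of genes had peaks in CRLM1-OE replicates 1 and 2 but none of the control lists. PLEKHG2 is in the next bin, of 9757 to 27471 bp, with 0.779%, and the longer bins had 0.839% and 1.76%. On chromosome 19, which is dense in genes, the share was 1.96%, or 29 of 1476 genes.

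The scores of the member peaks ran from 63.03 to 328.46. The medians of the CRLM1-OE lists were 56.47 and 57.62, and all 4 distinct member peaks were above the median of their own list. The highest scores in these lists were 822.12 and 570.38. Among the 82 merged regions that CRLM1-OE replicates 1 and 2 shared and no control list held, the ZFP36 region stood 4th by its rank in replicate 2, 51st by that in replicate 1 and 37th by the mean of both. Replicate 2 therefore carried the strength of this locus.

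**Figure D3:**
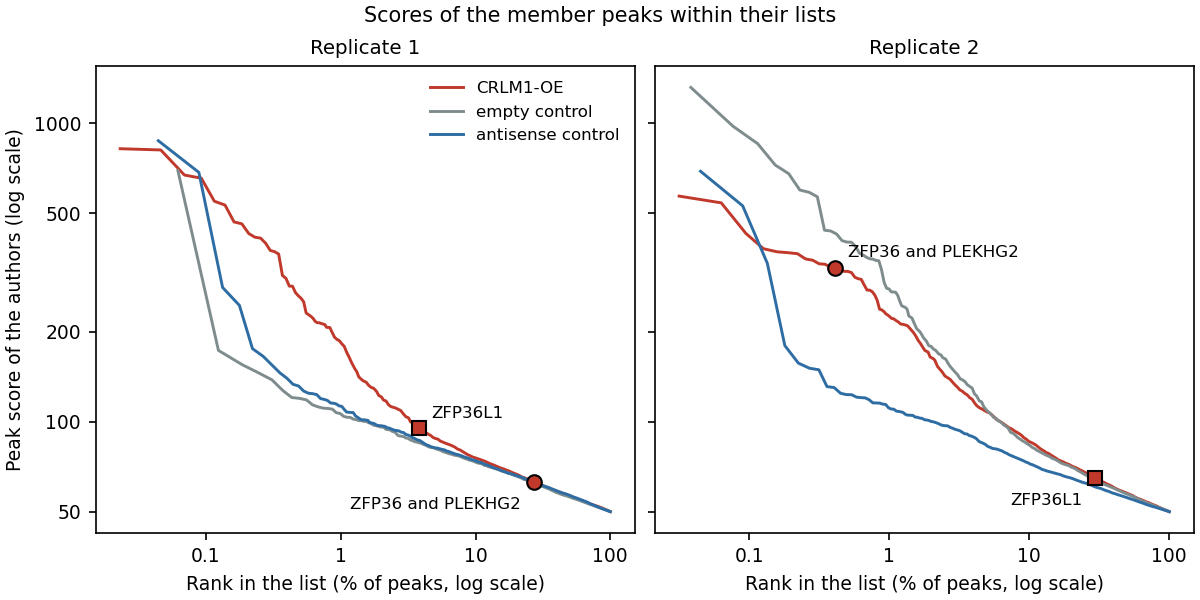
Curves give the score of every list against the rank as a percentage of its peaks, with both axes on a log scale and replicates 1 and 2 in separate panels, and symbols mark the peaks at the members. The peak of ZFP36 and PLEKHG2 sits at 0.411% of its list in CRLM1-OE replicate 2 and at 27.0% in replicate 1, and that of ZFP36L1 at 29.6% and 3.80%.

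The base composition of the member peaks was compared with all peaks of the same list, as a description. The ZFP36 peaks were 58.3% and 60.6% GC in CRLM1-OE replicates 1 and 2 and the ZFP36L1 peaks 56.6% and 55.8%, where the medians of the lists were 43.3% and 42.3%. Between 79.1% and 86.0% of the peaks in the same list were at or below these values. The motif CCCC was found 3.24 and 3.51 times per 100 bp in the ZFP36 peaks and 3.68 and 3.30 times in the ZFP36L1 peaks, against medians of 0.617 and 0.604. The observed CpG number was 0.765 and 0.561 of that expected from the base content at ZFP36 and 0.811 and 0.429 at ZFP36L1, and the lists had medians of 0.210 and 0.219. Over their whole length all 4 peaks were thus richer in GC, CCCC and CpG than most of their lists. At ZFP36 the composition differed along the peak. The central 300 bp were 74.7% GC in replicate 1, which is the shared centre shown above, and 40.3% GC in replicate 2, whose midpoint falls in the 3' UTR. In the central 300 bp of the ZFP36L1 peak of replicate 2 the CpG ratio was 0, where the list median for such windows was 0.217.

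RefSeq promoters of 300 bp were found for 3 of the 4 genes. The ZFP36 promoter held 19 matches of CCCC on either strand, and 97.7% of all promoters had as many or fewer. The PLEKHG2 promoters held 20 and 16 matches. No list had a peak on these 3 stretches, nor on the outer ZFP36L1 promoter, which held 9. The inner ZFP36L1 promoter held 8 and was touched by the peak of CRLM1-OE replicate 1, where the median promoter has 5. TCCC was less extreme at ZFP36, with 6 matches, and 78.7% of all promoters had as many or fewer. The PLEKHG2 promoters held 8 and 13 matches of TCCC and the outer and inner ZFP36L1 promoters 3 and 5. The median promoter has 4.

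The genes whose calls were most like those of ZFP36 were sought among 208 other protein-coding genes of the same pattern, by the distance between their best percent ranks in the 2 lists. The nearest were TMEM107, LRRC75A, EME2, NME3 and CD79A, with distances of 3.80 to 8.02 percentage points where the median of the 208 was 46.9. In each of them the peaks of the replicates overlapped. Replicate 2 also gave the higher relative rank in each, but the choice by likeness to the ranks of ZFP36 fixes this. TMEM107, which encodes a protein of the ciliary transition zone, ranked 1009 of 4339 and 35 of 3163, with midpoints 3357 and 3334 bp after its start, near its 3' end. EME2, an endonuclease subunit gene, and NME3, a nucleoside diphosphate kinase gene, share the same peaks, ranked 946 and 137, which cover the NME3 start. CD79A, a B cell receptor component gene on chromosome 19, ranked 823 and 10 through peaks in its upstream 5 kb. LRRC75A ranked 997 and 92, towards its 3' end. Likeness here concerns 2 ranks in 2 lists and no more.

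Genes that act with ZFP36 proteins or on them were described as 4 lists of 11 to 26 genes, all of which were found in the annotation. Of the 19 genes for deadenylation and decapping, 3 had a peak in CRLM1-OE replicate 1 and 3 others in replicate 2, or 15.8% each, and none had a peak in a control list. These were CNOT2, EDC4 and XRN1 in replicate 1 and CNOT9, DCP1B and DCP2 in replicate 2. The highest relative rank was that of EDC4, a decapping scaffold, at 1378 of 4339, with a peak over its start, so these were ordinary calls. None of the 19 was called in both CRLM1-OE replicates, where the share of all protein-coding genes was 2.52%. The shares of all protein-coding genes called in each list were 10.6% and 9.38% with CRLM1-OE and from 3.50% to 5.84% among the 4 control lists. In a list of this size the counts per list therefore lie within about 1 or 2 genes of the background. Over all protein-coding genes, 17.5% had a peak in any CRLM1-OE list, 16.8% in any control list and 11.4% in a CRLM1-OE list but none of the controls. Of the 19 genes, 6 had a peak in any CRLM1-OE list and 0 in any control list. With the lists pooled the 6 are thus a larger part of the 19 than 17.5% or 11.4%, which was not tested. The 6 genes ran from 11448 bp (EDC4) to 141456 bp (XRN1) in length, and these shares were not matched for gene length.

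The counts in the other gene lists are to be read against the same shares. Most lie near them, and some counts in control lists lie above them. Of the 11 genes for other proteins that bind AU-rich elements or 3' UTR stem-loops, 1 was called in CRLM1-OE replicate 1 and 1 in replicate 2. The empty control lists had 1 and 0 and the antisense control lists 0 and 3. A single call is 9.09% of these genes. The 3 are 27.3%, against 5.84% of all protein-coding genes in antisense control replicate 2. The best ranked was TIAL1, an RNA-binding protein gene, at 178 of 4339 in CRLM1-OE replicate 1, with the midpoint 365 bp after its start. Of the 26 genes with transcripts that ZFP36 proteins target, 4 and 3 were called in the CRLM1-OE lists, or 15.4% and 11.5%. The empty control lists had 3 and 0 and the antisense control lists 3 and 3, where 3 genes are 11.5%. In empty control replicate 1 the share of all protein-coding genes was 3.50%. NOTCH1, which encodes a receptor, was called in 5 lists. In CRLM1-OE replicate 2, empty control replicate 1 and both antisense control lists the NOTCH1 peaks lay at nearly the same place, with starts between 136527969 and 136528148 on chromosome 9. Their ranks were 856 of 3163, 617 of 1619, 2003 of 2262 and 547 of 2224, so this target was called across groups. The NOTCH1 peak of CRLM1-OE replicate 1 lay elsewhere in the gene, with its start at 136538609, and ranked 1725 of 4339. ZEB1 was called in CRLM1-OE replicate 1, empty control replicate 1 and antisense control replicate 1. CCND1 was called in CRLM1-OE replicate 2 and antisense control replicate 1. As ZFP36 was chosen by its calls, no contrast with these genes is read.

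Of the 14 kinase, phosphatase and 14-3-3 genes that act on ZFP36, YWHAZ alone had a peak, in CRLM1-OE replicate 2, where it ranked 148 of 3163. The 4 gene lists held no gene called in CRLM1-OE replicates 1 and 2 and in none of the controls, a pattern that only 1.05% of all protein-coding genes had, so nothing is read from its absence.

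**Figure D4:**
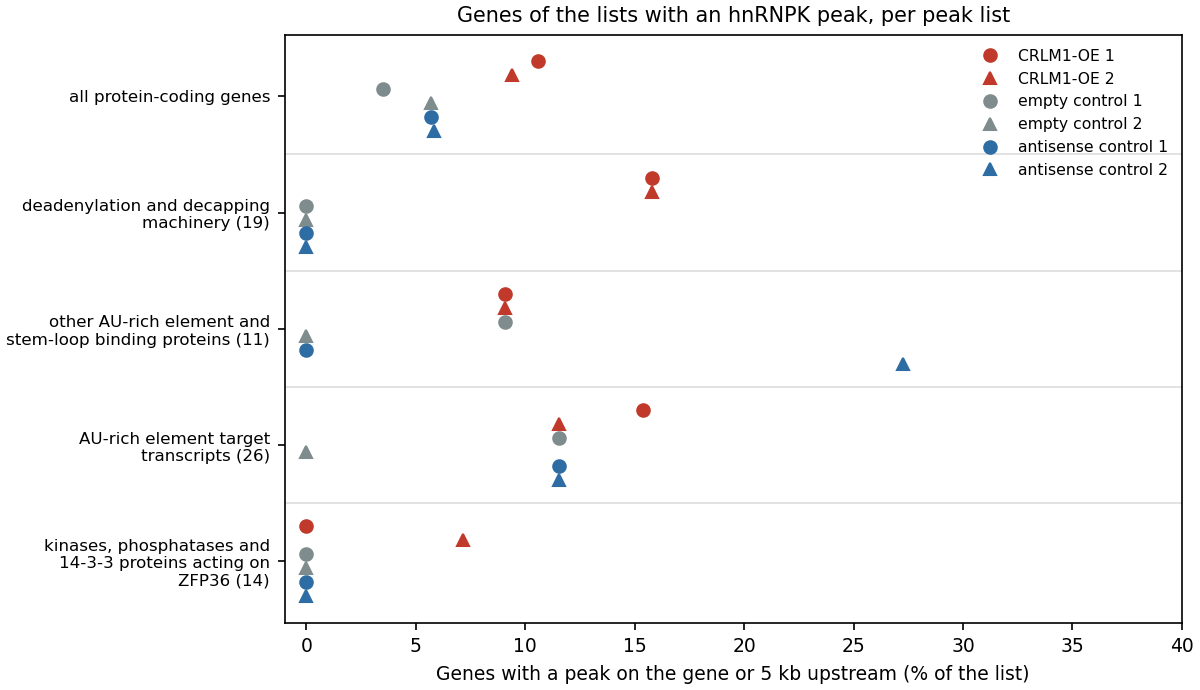
The horizontal axis gives the percentage of genes in each list (number of genes in brackets) with a peak on the gene or in the 5 kb upstream, circles are replicate 1, triangles are replicate 2 and colours are the groups. The top row gives all protein-coding genes, from 3.50% in empty control replicate 1 to 10.6% in CRLM1-OE replicate 1. The deadenylation and decapping genes are at 15.8% in CRLM1-OE replicates 1 and 2 and at 0 in the control lists, and the other lists overlap between groups or hold 1 gene.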

How the data were processed

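Chromatin immunoprecipitation and sequencing libraries for hnRNPK and matched input libraries were made from HCT116 cells, 12 samples in all. Per the study's methods and the submitters' processing notes, the authors used cutadapt for trimming, Bowtie2 for alignment to GRCh38 and MACS2 for peak calling, each IP library against its input. The deposited lists hold peak positions and a score for each peak. Their peak names and a score floor of 50, which is a p-value of 1e-05 on the scale of older MACS versions, differ from the stated q-value cutoff, so the caller settings are not known. Scores were used only to rank peaks within a list.

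Peaks on chromosomes 1 to 22, X and Y were used, 16214 of 16768. Genes came from GENCODE release 44, and sequence from hg38 (samtools 1.23.1, pysam 0.24.0), on whose chromosomes every used peak fitted. Python 3.11.15 was used with pandas 2.3.3 and numpy 2.4.6 for tables and matplotlib 3.10.9 for figures. The overlap rule was tested on simulated data and found 1000 of 1000 planted peaks among 20033 genes. The members, gene lists and neighbours rule (50 kb) were chosen with earlier results of these data known, and no test was made. From each gene list, genes called in both lists of a group or else the best ranked were named, and others are named where a count was small. The number of unused numeric columns was 0. Protein sequences were not used here, and 1 gene list, of partners of PLEKHG2, is not reported here. Alternatives were other windows, score filters, a midpoint rule and leaving out each list.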

Additional observations from a re-analysis of the deposited data

How the results depend on the processing

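The value followed was the mean number of peaks per list in CRLM1-OE minus that in the 4 control lists, which was 1 for ZFP36, ZFP36L1 and PLEKHG2 and 0 for ZFP36L2. Leaving out any 1 of the 6 lists can only return 1 and 0, since the choice of the members fixes it, and says nothing about stability. Searching only within 1 kb of the gene start gave 0.5 for ZFP36 and 0 for ZFP36L1 and PLEKHG2. The 1000 highest-scoring peaks of each list gave 0.5 for ZFP36 and PLEKHG2, as the replicate 1 peak was lost, and a rule on the peak midpoint gave 0.5 for ZFP36. The gene record alone gave 0 for PLEKHG2. With 10 kb upstream ZFP36L2 had -0.25, from the peak of empty control replicate 1. A search within 1 kb of any transcript start, chosen after seeing the data, gave 0.5 for ZFP36, 1 for ZFP36L1 and 0 for PLEKHG2. The 0 for ZFP36L1 above thus holds for the outermost start of its gene record only. With a reciprocal overlap of 50% the ZFP36 peaks of the CRLM1-OE replicates no longer counted as 1 region, and the count was 0. The excess of genes with a peak, 4.81 percentage points, was between 4.20 and 5.43 when 1 list was left out, 1.51 within 1 kb of the start, 3.05 for scores above the list median, 1.09 for the 1000 highest-scoring peaks and 2.33 over all genes. For the deadenylation and decapping genes the difference of 3 genes per list fell to 2 for scores above the median and to 0 for the 1000 highest-scoring peaks. No paired analysis was possible because no result came from a test, and values are given for each numbered list instead. Depth is unknown, which limits what the absence of a peak can show.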
